A study of Mus musculus with 2 samples.

Results

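Fto, Rpgrip1l, Rbl2, Aktip and Chd9 lie side by side on mouse chromosome 8, next to Irx3 and Irx5, and Bbs2 lies on the far side of that gene pair. These 6 genes were taken by name, for their position, from a deposited table of 20210 genes, and all 6 were found there. The data are single-cell RNA counts from the base of the hypothalamus (median eminence and arcuate nucleus) of CD-1 mice at postnatal day 10. Cells were viable and sorted for tdTomato, and libraries were made with the 10x Genomics 3′ v3 chemistry, which counts each captured transcript molecule once by its molecular identifier (UMI). The Irx3/5dHet (dHet) library came from Ins2-Cre;tdTomato+/-;Irx3/5+/- mice, which are heterozygous for both Irx3 and Irx5. The Control library came from Ins2-Cre;tdTomato+/- mice. Each library was a pool of 5 mice, and there was 1 library per genotype. All animals thus carried the Cre transgene and the reporter, and the cells seen are those in which Cre from the Ins2 promoter had been active at some time. With 1 library a genotype there is no spread between animals, so no test between genotypes is possible. The intervals given in brackets are 95% intervals for counting error only.

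FTO is an AlkB-family dioxygenase that removes methyl groups from adenosine in RNA. Variants within introns of the human FTO gene are associated with obesity, and stretches of those introns contact or regulate IRX3 and IRX5. RPGRIP1L is a scaffold of the transition zone, the gate at the base of the primary cilium, and BBS2 is a subunit of the BBSome, the coat complex that carries receptors through cilia. Loss of BBSome genes causes Bardet-Biedl syndrome, which includes obesity, and neurons of the arcuate nucleus that control feeding bear primary cilia. RBL2 (p130) is a pocket protein that represses cell cycle genes with E2F factors, CHD9 is a chromodomain helicase that remodels chromatin, and AKTIP (FTS) is part of a complex with Hook proteins that links endosomes to dynein.

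In the GENCODE annotation of GRCm38, Chd9 (ENSMUSG00000056608) spans chr8:90828352-91054516 on the plus strand, followed by Rbl2 (ENSMUSG00000031666, chr8:91070057-91123844, plus) and Aktip (ENSMUSG00000031667, chr8:91111784-91199976, minus). Rpgrip1l (ENSMUSG00000033282) is at chr8:91217030-91313262 on the minus strand and Fto (ENSMUSG00000055932) at chr8:91313525-91668439 on the plus strand. Rpgrip1l and Fto are divergent, with 262 bp between their annotated starts. Irx3 lies 130085 bp beyond the end of Fto, Irx5 lies further on, and Bbs2 (ENSMUSG00000031755, chr8:94067954-94098928, minus) is 1.69 Mb beyond Irx5.

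Rbl2 and Aktip run towards each other and share 12061 bp on opposite strands, and the 3′ ends of Bbs2 and its neighbour Ogfod1 are 32 bp apart. The sources used here do not give whether the authors' counting used strand, so the split of reads within each of these pairs is uncertain. The annotated antisense transcripts over Fto had few counts, with 87 UMIs for 4831440D22Rik and 12 UMIs for Gm3235 over all cells.

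The stretch between Rpgrip1l and Fto is shown because 250 bases of it hold the upstream sides of both genes, whose ratios between the libraries pointed in opposite directions. In the RefSeq promoter windows of GRCm38.p6, which run from 250 bases before to 50 bases after each start, the Fto and Rpgrip1l windows overlap by 198 bases. The sequence covers chr8:91313275-91313524 on the plus strand and ends at the base before the Fto start. Capitals mark a 14-base stretch that occurs in it 2 times with 2 letters differing, 206 and 75 bases before the start, which gives the motif CTGGGAANNGTAGT.
Fto upstream: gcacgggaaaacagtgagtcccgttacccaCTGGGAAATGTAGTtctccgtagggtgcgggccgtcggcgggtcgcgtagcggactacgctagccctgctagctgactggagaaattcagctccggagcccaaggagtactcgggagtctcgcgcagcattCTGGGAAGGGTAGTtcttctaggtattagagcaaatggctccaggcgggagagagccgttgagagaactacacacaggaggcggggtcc
The same motif was present on the opposite strand 41 bases before the Rbl2 start, in capitals in chr8:91069987-91070030 of the plus strand.
Rbl2 upstream: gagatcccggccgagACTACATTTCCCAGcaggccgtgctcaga
The motif was derived from these sequences, as the most alike pair of 14-base stretches upstream of Fto, and of 4 equally alike stretches the 1 that also occurs in the window of another of the genes. Both strands of every window were searched. It was found in the windows of Fto and Rpgrip1l (the same 2 sites) and of Rbl2, and in none of the windows of Chd9, Aktip and Bbs2. Among all 32851 RefSeq promoter windows of this length, 192 (0.584%) held at least 1 match and 8 (0.0244%) held 2 or more. A match describes the letters only.

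The dHet library held 3939 cells with 71827597 UMIs and the Control library 3479 cells with 63100794 UMIs. Median depth was 17175 UMIs per cell in the dHet library and 16508 in the Control library, and 4 barcode sequences occurred in both. Clustering without the 6 genes, Irx3 and Irx5 gave 32 clusters, 28 of which could be named from marker genes. The named classes were neuron-like (2902 dHet and 2257 Control cells), astrocyte-like (449 dHet and 431 Control), tanycyte-like (255 dHet and 323 Control), oligodendrocyte precursor-like (78 dHet and 96 Control), oligodendrocyte-like (39 dHet and 30 Control), cycling (34 dHet and 37 Control), ependymal-like (25 dHet and 28 Control) and pars tuberalis- or pituitary-like (14 dHet and 39 Control). Levels below are in CPM, the UMIs of a gene scaled to the total UMIs of the same cells, and ratios of dHet over Control are given only for classes with at least 50 cells in each library. No cluster was named for vascular, connective tissue or immune cells. Their markers had summed levels of 71.1 CPM in dHet and 65.9 CPM in Control for 6 endothelial genes, and 9.51 CPM in dHet and 4.26 CPM in Control for 6 mural genes. The endothelial genes include Itm2a, which was also a leading gene of an Sst neuron-like cluster, so their sum is not a measure of endothelial cells alone. The sums were 9.95 CPM in dHet and 29.3 CPM in Control for 6 fibroblast genes, and 2.24 CPM in dHet and 8.43 CPM in Control for 7 microglial genes. None of these genes was at 0, and their part in the results was not tested.

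The targeted genes were lower in the dHet library. Irx3 had 43 UMIs (0.599 CPM) in dHet against 95 UMIs (1.51 CPM) in Control, a ratio of 0.398 (0.271 to 0.576). Irx5 had 110 UMIs (1.53 CPM) in dHet against 182 UMIs (2.88 CPM) in Control, a ratio of 0.531 (0.415 to 0.676). Where the deletions lie within these genes is not stated, so a 3′ tag may fall outside them. Astrocyte-like cells held most of these UMIs, with Irx3 at 6.78 CPM in dHet and 22.9 CPM in Control and Irx5 at 20.9 CPM in dHet and 38.4 CPM in Control. In neuron-like cells both were close to absent, with 1 UMI of Irx3 and 2 of Irx5 in dHet against 8 of Irx3 and 13 of Irx5 in Control.

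Fto, the RNA demethylase gene, was read in every class at similar levels. With both libraries together it stood at 78.6 CPM (64.7 to 94.7) in oligodendrocyte precursor-like cells, 68.7 CPM (54.9 to 84.9) in oligodendrocyte-like, 65.9 CPM (49.4 to 86.2) in cycling, 65.2 CPM (59.0 to 71.9) in astrocyte-like, 61.4 CPM (60.0 to 62.8) in neuron-like, 54.5 CPM (48.6 to 61.0) in tanycyte-like, 46.0 CPM (31.2 to 65.3) in pars tuberalis- or pituitary-like and 38.6 CPM (26.3 to 54.8) in ependymal-like cells. The intervals of every 2 neighbours in this order overlapped, while ependymal-like cells lay below neuron-like, astrocyte-like, oligodendrocyte-like and oligodendrocyte precursor-like cells, and the precursor-like cells lay above neuron-like and tanycyte-like cells. Over the 32 clusters the median was 60.2 CPM, between 38.6 CPM in the ependymal-like cluster and 78.6 CPM in the oligodendrocyte precursor-like cluster.

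**Figure D1:**
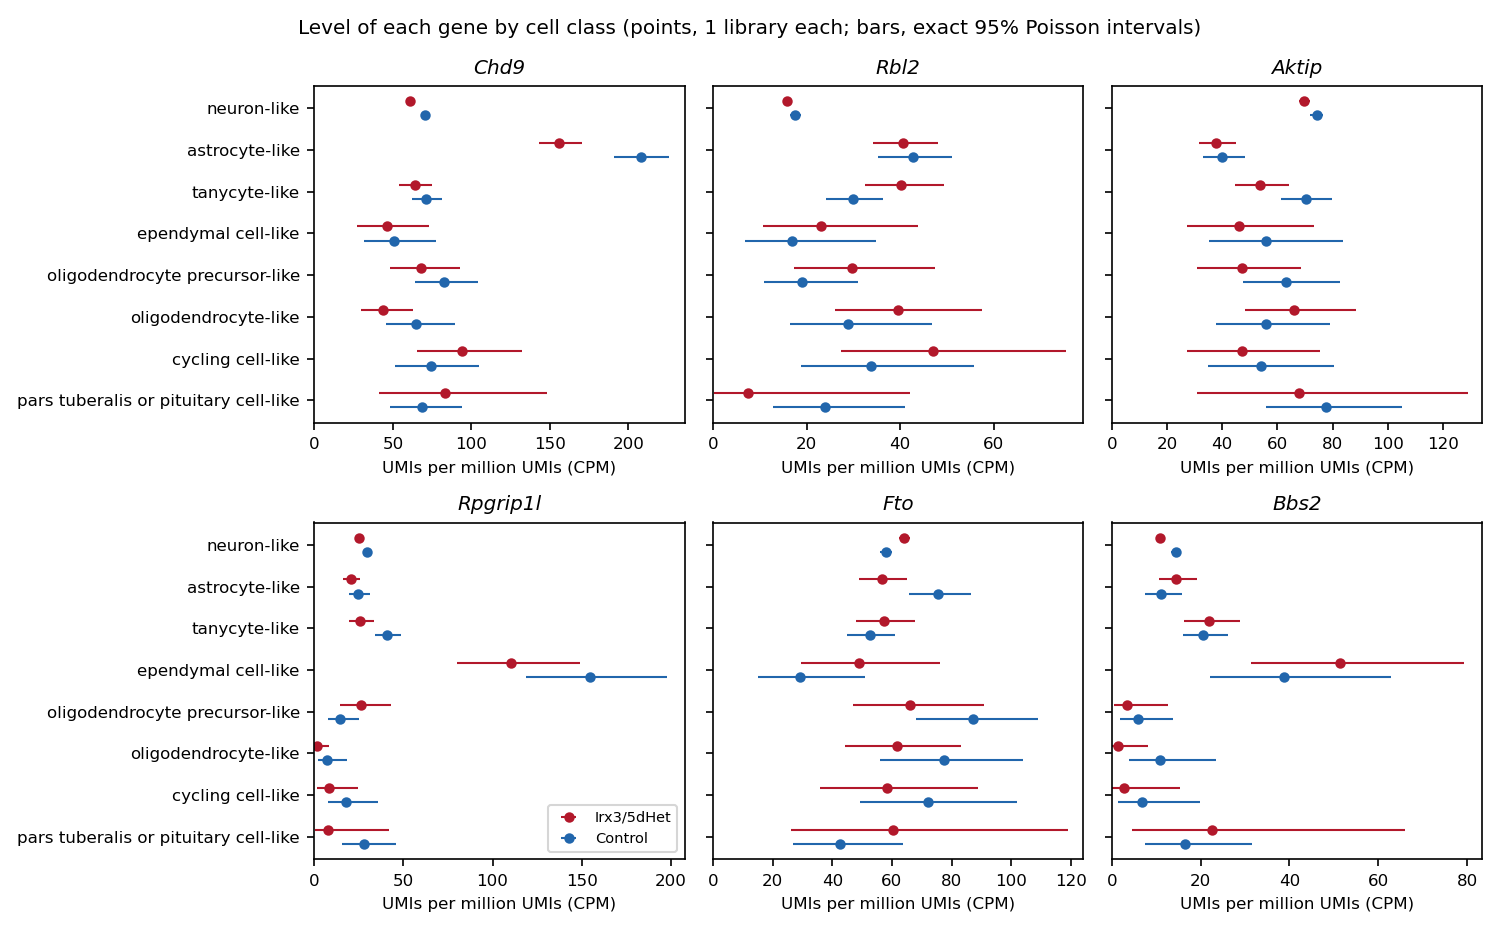
Levels of the 6 genes in 8 cell classes (CPM) for the dHet library and the Control library, with exact 95% Poisson intervals. Rpgrip1l is highest in ependymal-like cells (110.5 CPM in dHet, 155 CPM in Control), Chd9 is highest in astrocyte-like cells (156 CPM in dHet, 208 CPM in Control), and Fto is at similar levels throughout.

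The cilium genes had another pattern. Rpgrip1l was at 110.5 CPM (79.9 to 149) in dHet and 155 CPM (119 to 198) in Control ependymal-like cells, the multiciliated lining of the ventricle, from 43 UMIs in 25 dHet cells and 64 UMIs in 28 Control cells. Tanycyte-like cells, the elongated glia of the third ventricle floor, had 25.8 CPM (19.6 to 33.3) in dHet and 40.9 CPM (34.3 to 48.5) in Control. Neuron-like cells had 25.3 CPM (24.1 to 26.6) in dHet and 29.4 CPM (27.9 to 30.9) in Control, so that in dHet the tanycyte-like and neuron-like intervals overlapped and in Control they did not. Astrocyte-like cells had 20.3 CPM in dHet and 24.7 CPM in Control, and oligodendrocyte precursor-like cells had 26.1 CPM in dHet and 14.3 CPM in Control from 15 dHet and 12 Control UMIs, and oligodendrocyte-like cells were lowest with 1 UMI in dHet (1.47 CPM) and 4 in Control (7.20 CPM).

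Bbs2 was also highest in ependymal-like cells, with 51.4 CPM (31.4 to 79.4) in dHet and 38.7 CPM (22.1 to 62.9) in Control, from 20 dHet and 16 Control UMIs. It was at 21.8 CPM (16.2 to 28.8) in dHet and 20.6 CPM (16.0 to 26.2) in Control tanycyte-like cells, at 14.4 CPM in dHet and 11.1 CPM in Control astrocyte-like cells, and at 10.8 CPM (10.0 to 11.7) in dHet and 14.4 CPM (13.4 to 15.4) in Control neuron-like cells. With both libraries together, neuron-like cells (12.4 CPM, 11.8 to 13.1) and astrocyte-like cells (12.9 CPM, 10.3 to 16.1) could not be told apart, and oligodendrocyte precursor-like (4.96 CPM, 1.99 to 10.2), cycling (4.97 CPM, 1.35 to 12.7) and oligodendrocyte-like cells (5.66 CPM, 2.27 to 11.7) had the lowest levels. In each library both cilium genes thus had their highest level in the cells that bear many cilia.

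Of the nuclear regulators, Chd9 was highest in astrocyte-like cells, at 156 CPM (143 to 170.2) in dHet and 208 CPM (191 to 226) in Control. No other class reached 100 CPM in either library. Neuron-like cells had 60.8 CPM in dHet and 70.3 CPM in Control, and tanycyte-like cells had 63.8 CPM in dHet and 71.4 CPM in Control, 2 classes with overlapping intervals. Astrocyte-like cells held 4.72% of all UMIs and 11.3% of the Chd9 UMIs in dHet, and 4.42% of all UMIs and 12.1% of the Chd9 UMIs in Control. The level belonged to the larger of 2 astrocyte-like clusters, led by Agt, Ednrb and Slc4a4 (412 dHet and 404 Control cells), with 198 CPM in both libraries together. The smaller, led by Selenop, Ntsr2 and Fabp7 (37 dHet and 27 Control cells), had 70.9 CPM, near the 65.2 CPM of neuron-like cells. Median depth in the smaller was 15954 UMIs in dHet and 4056 in Control, against 6513 in dHet and 5708 in Control in the larger. Whether the smaller cluster holds astrocytes alone was not tested.

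Rbl2, the pocket protein gene, was lower in neuron-like cells than in most glia. It was at 15.9 CPM (14.9 to 16.9) in dHet and 17.5 CPM (16.4 to 18.7) in Control neuron-like cells, at 40.7 CPM (34.2 to 48.1) in dHet and 42.7 CPM (35.3 to 51.0) in Control astrocyte-like cells, and at 40.2 CPM (32.4 to 49.3) in dHet and 29.9 CPM (24.2 to 36.4) in Control tanycyte-like cells. Cycling cells had 47.1 CPM in dHet and 33.8 CPM in Control from 17 dHet and 15 Control UMIs, too few to place them apart from the glia. Aktip, the endosome transport gene, was higher in neuron-like than in astrocyte-like cells, with 69.8 CPM (67.7 to 71.9) in dHet and 74.2 CPM (71.9 to 76.5) in Control neuron-like cells against 37.7 CPM (31.5 to 44.9) in dHet and 40.1 CPM (33.1 to 48.3) in Control astrocyte-like cells. Other glia were closer to neurons, with 53.7 CPM (44.7 to 64.1) in dHet and 70.2 CPM (61.4 to 79.9) in Control tanycyte-like cells and 66.0 CPM (48.1 to 88.3) in dHet and 55.8 CPM (37.9 to 79.2) in Control oligodendrocyte-like cells, of which all but the dHet tanycyte-like interval overlap the neuron-like interval of their library. Here too the astrocyte-like clusters differed, with 33.8 CPM (29.0 to 39.2) in the larger and 68.6 CPM (52.5 to 88.2) in the smaller, both libraries together. The level in the smaller was near that of neuron-like cells (71.8 CPM). Its median depth was 15954 UMIs in dHet and 4056 in Control, so it may not stand for a second kind of astrocyte, which was not tested.

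**Figure D2:**
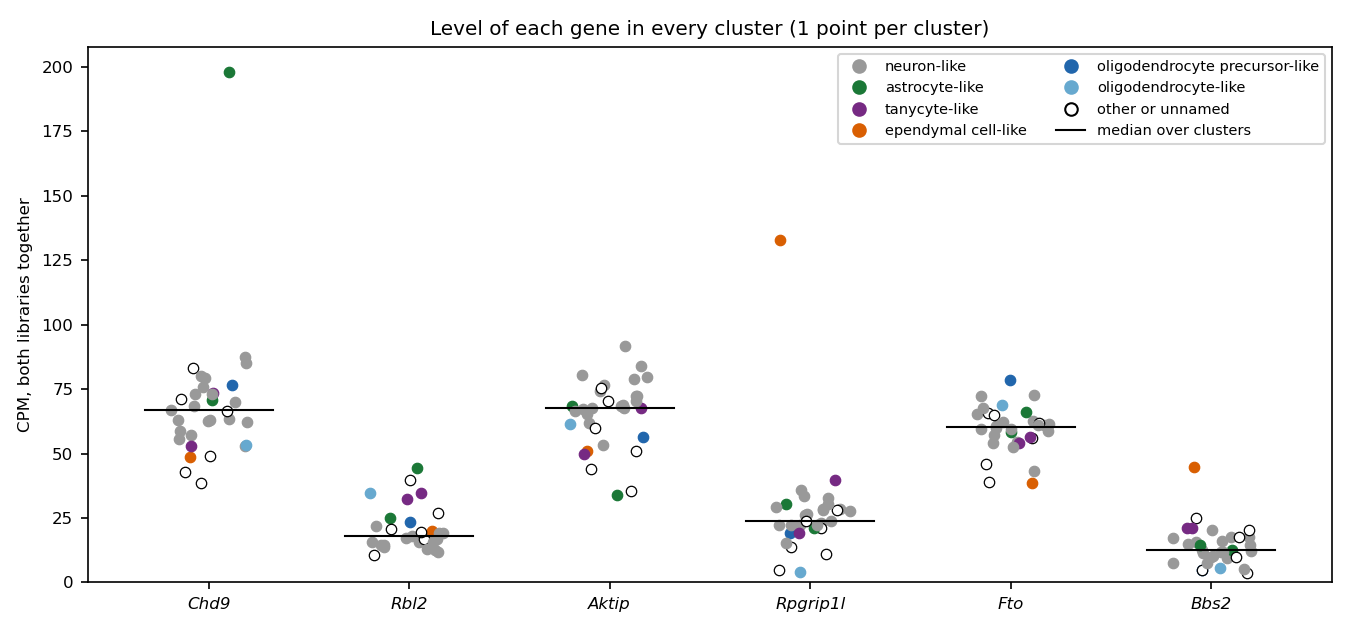
Level of each gene in each of the 32 clusters, both libraries together (CPM), with points coloured by class and a line at the median. Rpgrip1l and Bbs2 each have their top cluster among the ependymal-like cells (133 CPM and 44.9 CPM), Chd9 and Rbl2 among the astrocyte-like cells (198 CPM and 44.4 CPM), and the Fto clusters lie between 38.6 and 78.6 CPM.

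Over all cells, Fto was slightly higher in the dHet library and the other genes were at or below their Control level. Fto was at 63.6 CPM (4571 UMIs) in dHet and 58.7 CPM (3701 UMIs) in Control, a ratio of 1.09 (1.04 to 1.13). Its divergent neighbour Rpgrip1l was at 25.1 CPM (1805 UMIs) in dHet and 29.9 CPM (1889 UMIs) in Control, a ratio of 0.839 (0.787 to 0.896). Bbs2 was at 11.5 CPM (826 UMIs) in dHet and 14.6 CPM (920 UMIs) in Control, a ratio of 0.789 (0.717 to 0.867). Fto was thus the single member of the group above its Control level, and the cilium genes were furthest below it.

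Chd9 was at 65.4 CPM (4698 UMIs) in dHet and 76.1 CPM (4803 UMIs) in Control, a ratio of 0.859 (0.825 to 0.895). Aktip was at 67.1 CPM (4819 UMIs) in dHet and 71.6 CPM (4515 UMIs) in Control, a ratio of 0.938 (0.900 to 0.977). Rbl2 was at 18.5 CPM (1326 UMIs) in dHet and 19.5 CPM (1232 UMIs) in Control, a ratio of 0.946 (0.874 to 1.02), whose interval includes 1. A fold threshold was set for all genes with at least 50 UMIs, at a log2 ratio of 0.32 in size on the log2(CPM + 5) scale. None of the 6 genes passed it, and over all 15609 such genes 3.34% passed in either direction (0.634% higher and 2.71% lower in dHet). All 6 differences were smaller than that fold on this scale, which is used for every call past the fold below. The added 5 CPM shrinks ratios most for genes at low levels, such as Bbs2, whose ratio without it was 0.789.

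On that scale the median log2 ratio of the 6 genes was -0.15, against -0.03 over all genes. Ranked among the 15609 genes from lowest to highest ratio, Fto (log2 ratio 0.11) stood at percentile 90.7, Bbs2 (-0.25) at percentile 5.61, Rpgrip1l (-0.21) at 8.01 and Chd9 (-0.20) at 8.80. Aktip (-0.09) was at percentile 30.0 and Rbl2 (-0.06) at 36.8. Neuron-like cells made up 73.7% of dHet cells and 64.9% of Control cells, so these ratios mix levels with cell numbers. With every cell weighted equally, the log2 ratio of Fto over all cells was 0.02 and that of Rpgrip1l was -0.32, and with every cell thinned to 4000 UMIs the Fto value was 0.01.

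Within neuron-like cells the same directions were seen. Fto was at 64.2 CPM (62.3 to 66.2) in dHet and 58.0 CPM (55.9 to 60.1) in Control, a ratio of 1.11 (1.06 to 1.16). Bbs2 was at 10.8 CPM in dHet and 14.4 CPM in Control, a ratio of 0.753 (0.678 to 0.836), and Rpgrip1l had a ratio of 0.861 (0.803 to 0.924). The ratios of Chd9, Rbl2 and Aktip were 0.865 (0.826 to 0.905), 0.908 (0.830 to 0.994) and 0.941 (0.901 to 0.982). No gene of the 6 passed the fold on the log2(CPM + 5) scale, where Bbs2 was at -0.29. The background was 2.05% of 14497 genes (0.635% higher and 1.41% lower). Among those genes Fto was at percentile 93.8 and Bbs2 at percentile 1.92.

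The median neuron-like cell had 21260.5 UMIs in dHet and 22840.0 in Control, and the ratios were also taken within 3 equal bins of depth, with limits at 17490 and 26593 UMIs per cell. The Fto ratio was 1.11 (lower bound 0.997), 1.08 (0.997 to 1.18) and 1.10 (1.03 to 1.18) in the lowest, middle and highest of these. The Bbs2 ratio was 0.696, 0.674 and 0.828, the Rpgrip1l ratio 0.738, 0.777 and 0.959 (0.866 to 1.06), and the Chd9 ratio 0.793, 0.797 and 0.897. These ratios lay on 1 side of 1 in all 3 bins, but the intervals of Fto in the lower 2 bins and of Rpgrip1l in the deepest include 1. The 3 genes lower in dHet were nearest to Control in the deepest cells.

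The share of neuron-like cells with a UMI was lower in dHet for Bbs2 at both depths to which cells were thinned, and for Fto it differed by depth. After thinning to 4000 UMIs, which left out shallower cells, Bbs2 was found in 3.94% (3.26 to 4.72) of dHet and 5.97% (5.01 to 7.05) of Control neuron-like cells, against 580 of 2902 dHet and 610 of 2257 Control cells without thinning. Fto was found in 22.8% (21.2 to 24.4) of dHet and 22.5% (20.8 to 24.3) of Control neuron-like cells after thinning, against 70.4% of dHet and 68.1% of Control cells without it. After thinning to 8000 UMIs the Bbs2 shares were 7.84% (6.85 to 8.92) in dHet and 11.1% (9.74 to 12.5) in Control, and the Fto shares 41.0% (39.1 to 42.9) in dHet and 36.0% (upper bound 38.1) in Control, with intervals apart for both genes. In oligodendrocyte-like cells thinned to 4000 UMIs, a class low in cilium genes, Bbs2 was found in 0 of 37 dHet and 2 of 29 Control cells, with median depths of 15800.0 UMIs in dHet and 17168 in Control before thinning. Taking 3 counts as the limit that a count of 0 allows, 0 of 37 allows a share of up to 8.11%, and the exact 95% interval reaches 9.49%.

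**Figure D3:**
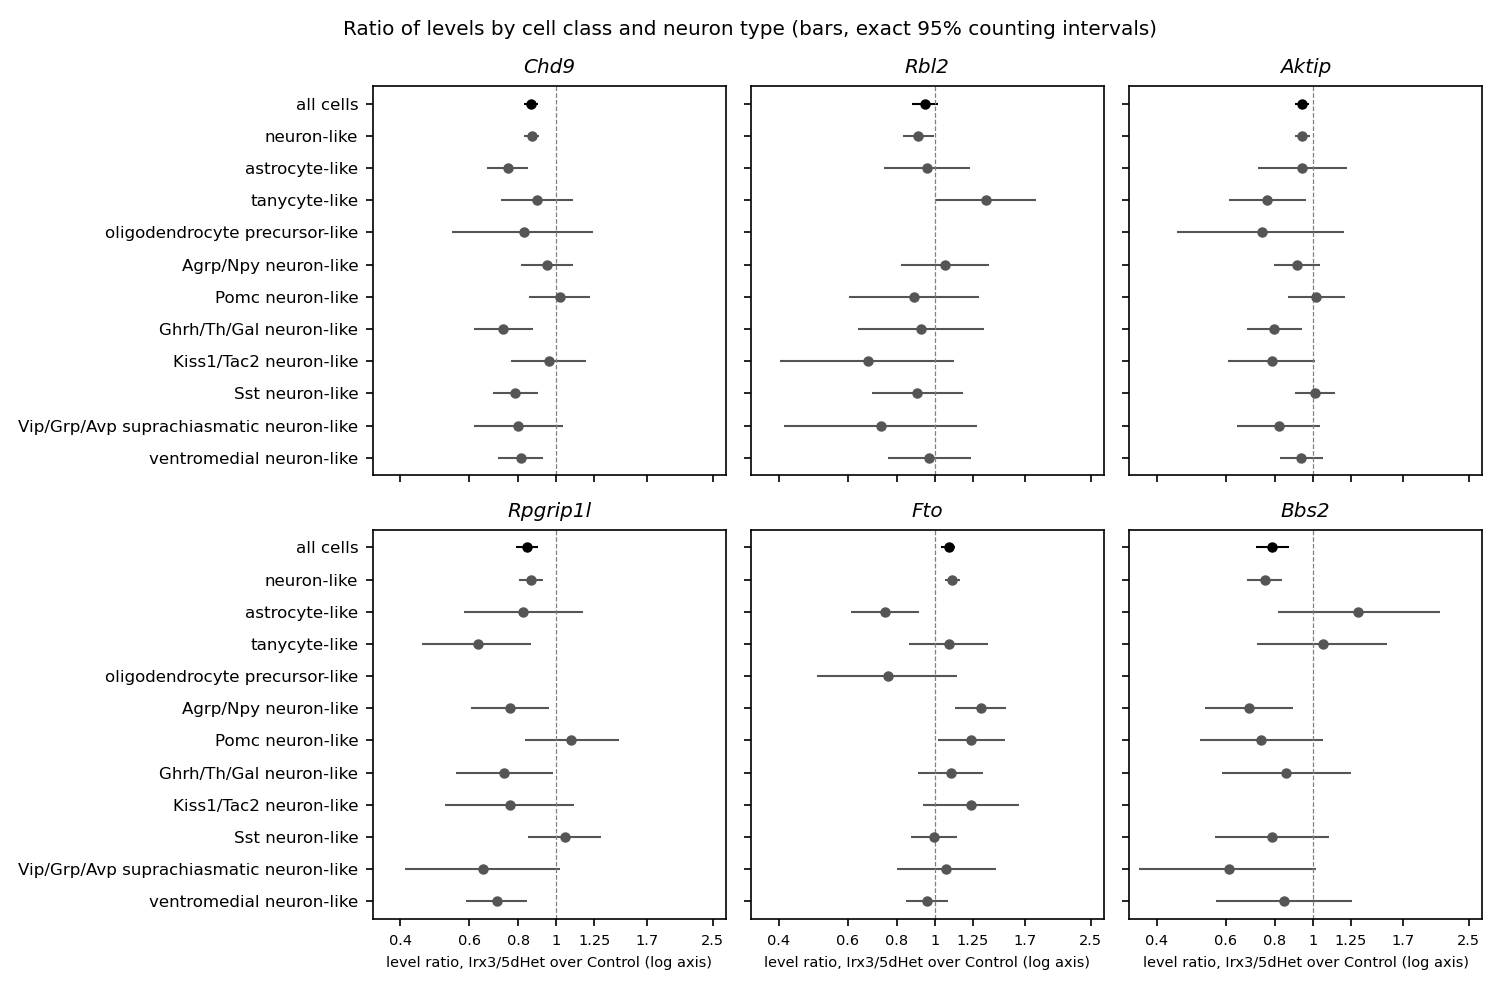
Ratio of the level in the dHet library over the Control library (log axis) for each gene over all cells and in classes and neuron types with at least 50 cells per library. Bars are exact 95% intervals for counting error, and a missing point had fewer than 50 UMIs. Fto lies above 1 in neuron-like (1.11) and Agrp/Npy neuron-like cells (1.31) and below 1 in astrocyte-like cells (0.749), and Rpgrip1l is lowest in tanycyte-like cells (0.630).

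In astrocyte-like cells, where Irx3 and Irx5 were themselves read, Fto was lower in the dHet library. It was at 56.6 CPM (48.9 to 65.2) in dHet and 75.6 CPM (65.8 to 86.6) in Control, a ratio of 0.749 (0.612 to 0.914) from 192 dHet and 211 Control UMIs. Chd9 was at 156 CPM in dHet and 208 CPM in Control, a ratio of 0.752 (0.667 to 0.847), and was found in 46.2% (41.0 to 51.4) of dHet cells and 55.2% (49.5 to 60.7) of Control cells thinned to 4000 UMIs. At 8000 UMIs, which left 126 dHet and 106 Control cells, the direction turned, with Chd9 in 66.7% (57.7 to 74.8) of dHet and 63.2% (53.3 to 72.4) of Control cells. These 2 of 6 genes passed the fold, both lower in dHet, beside 11.3% of 10117 genes lower and 12.1% higher in this class (23.4% in either direction).

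Rbl2, Aktip, Rpgrip1l and Bbs2 had astrocyte-like ratios of 0.954, 0.940, 0.823 and 1.30, each with an interval that includes 1. The median log2 ratio of the 6 genes was -0.15, against 0.00 over all genes of the class. Median depth was 6547 UMIs in dHet and 5706 in Control. When cells outside the 25th to 75th depth percentile of their library were dropped, the Chd9 log2 ratio was -0.04 in place of -0.40, and that of Fto stayed between -0.56 and -0.27 under the alternatives. In the larger astrocyte-like cluster alone Fto was at 55.1 CPM in dHet and 79.0 CPM in Control (0.698, 0.562 to 0.866). Chd9 was at 176 CPM in dHet and 222 CPM in Control there (0.791, 0.700 to 0.895). In the smaller the Fto ratio was 1.31 (0.702 to 2.57) from 37 dHet and 15 Control UMIs. Median depth in the smaller was 15954 UMIs in dHet and 4056 in Control, and the part of this gap was not tested.

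Tanycyte-like cells had the lowest Rpgrip1l ratio of the classes compared. Rpgrip1l was at 25.8 CPM (59 UMIs) in dHet and 40.9 CPM (133 UMIs) in Control, a ratio of 0.630 (0.455 to 0.862). It was found in 9.57% (6.09 to 14.1) of thinned dHet cells and 18.6% (14.3 to 23.5) of thinned Control cells, against 18.4% of dHet and 30.7% of Control cells without thinning. At 8000 UMIs the shares were 17.2% (11.1 to 24.9) in dHet and 24.6% (19.2 to 30.6) in Control, with overlapping intervals. In oligodendrocyte-like cells thinned to 4000 UMIs the gene was found in 1 of 37 dHet and 0 of 29 Control cells, where 0 of 29 allows a share of up to 10.3% by the 3-count limit and 11.9% by the exact interval. The difference was seen in both tanycyte-like clusters. In the cluster led by Crym, S100a6 and Prss56 the levels were 29.5 CPM in dHet and 47.7 CPM in Control, a ratio of 0.619 (0.439 to 0.864), and in that led by Scn7a, Cldn10 and Abca8a they were 10.9 CPM in dHet and 23.3 CPM in Control, a ratio of 0.467 (0.137 to 1.27).

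In the same tanycyte-like cells Aktip was at 53.7 CPM in dHet and 70.2 CPM in Control, a ratio of 0.766 (0.610 to 0.958), and Rbl2 was at 40.2 CPM in dHet and 29.9 CPM in Control, a ratio of 1.35 (1.00 to 1.81). With Rpgrip1l these were 2 genes lower and 1 higher past the fold, beside a background of 10.4% lower, 9.06% higher and 19.5% in either direction among 9732 genes. Fto (1.09, 0.860 to 1.37), Bbs2 (1.06, 0.720 to 1.55) and Chd9 (0.894, 0.721 to 1.10) had intervals that include 1, and the Fto log2 ratio was -0.22 with every cell weighted equally. Median depth was 8017 UMIs in dHet and 9937 in Control, and its part in these ratios was not tested beyond the thinned shares. In oligodendrocyte precursor-like cells 3 of the 6 genes had at least 50 UMIs, and Fto (0.761, 0.500 to 1.14) and Aktip (0.744, 0.450 to 1.20) were lower past the fold, with intervals that include 1 and a background of 14.5% lower, 14.6% higher and 29.0% in either direction.

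Among the 7 neuron types compared, the Fto ratio as reported was highest in Agrp/Npy neuron-like cells, the hunger-promoting neurons of the arcuate nucleus. There it was at 66.3 CPM (61.0 to 72.0; 578 UMIs) in dHet and 50.8 CPM (44.8 to 57.3; 258 UMIs) in Control, a ratio of 1.31 (1.13 to 1.52). In Pomc neuron-like cells, which restrain feeding, it was at 62.9 CPM (56.6 to 69.7) in dHet and 50.7 CPM (43.1 to 59.4) in Control, a ratio of 1.24 (1.02 to 1.51). In Kiss1/Tac2 neuron-like cells it was at 60.8 CPM in dHet and 49.2 CPM in Control, a ratio of 1.24 (0.932 to 1.64). The Agrp/Npy value stayed between 0.29 and 0.41 on the log2 scale under every alternative, while the Pomc value of 0.29 became -0.21 once cells were thinned to 4000 UMIs. The same thinning took the Ghrh/Th/Gal value of 0.12 to 0.59, above the Agrp/Npy range, so the order of the types depends on it. Among single neuron-like clusters outside these types, that led by Trh, Ebf1 and Nkx2-4 (84 dHet and 47 Control cells) had 65.8 CPM in dHet and 44.8 CPM in Control, a ratio of 1.47 (1.04 to 2.10).

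In the other types the Fto ratio was closer to 1, at 1.10 in Ghrh/Th/Gal, 1.07 in Vip/Grp/Avp, 0.996 in Sst and 0.954 (0.843 to 1.08) in ventromedial neuron-like cells. Sst neuron-like cells had 57.0 CPM in dHet and 57.2 CPM in Control, and ventromedial neuron-like cells had 64.8 CPM in dHet and 67.9 CPM in Control. The Sst type joins 2 clusters. That led by Sst, Itm2a and Cbln4 (177 dHet and 147 Control cells) had an Fto ratio of 0.955. That led by Bcl11b, Pthlh and Hmgn5 (134 dHet and 156 Control cells) had a ratio of 1.04. Both intervals include 1. Sst was not among the 10 leading genes of the Bcl11b cluster, whose type name rests on other markers. A cluster led by Sst, Th and Hmgn5 (20 dHet and 10 Control cells) was left outside the type. The ventromedial value joins 2 clusters with ratios on either side of 1, at 0.872 (0.756 to 1.01) in that led by Adcyap1, Cbln1 and Fezf1 and 1.24 (0.960 to 1.60) in that led by Slc17a8, Prdm13 and Ifi27l2a. Over the 7 types compared, Fto lay between 54.1 and 69.7 CPM in dHet and between 49.2 and 67.9 CPM in Control. Whether the ratio differs between types was not tested. Median depth was lower in dHet in all 7 types, for example 27445 UMIs in dHet and 31396 in Control Agrp/Npy neuron-like cells.

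Of the 6 genes in Agrp/Npy neuron-like cells, Fto was higher past the fold and Rpgrip1l and Bbs2 were lower, beside 6.02% of 10711 genes higher and 5.96% lower. Bbs2, the BBSome subunit gene, was at 15.3 CPM (12.8 to 18.1) in dHet and 22.2 CPM (18.3 to 26.7) in Control, a ratio of 0.687 (0.530 to 0.890). Rpgrip1l was at 20.7 CPM (17.8 to 23.9) in dHet and 27.1 CPM (22.8 to 32.1) in Control, a ratio of 0.761 (0.606 to 0.957). Aktip, Chd9 and Rbl2 had ratios of 0.909, 0.947 and 1.06, with intervals that include 1.

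Bbs2 had a ratio below 1 in each of the 7 neuron types compared. Apart from Agrp/Npy, it was 0.610 (0.360 to 1.02) in Vip/Grp/Avp, 0.739 (0.516 to 1.06) in Pomc, 0.779 in Kiss1/Tac2, 0.787 in Sst, 0.844 in ventromedial and 0.854 in Ghrh/Th/Gal neuron-like cells. It passed the fold in Pomc neuron-like cells (13.3 CPM in dHet, 18.0 CPM in Control), the sole gene of the 6 to do so there, beside 7.58% of genes lower and 5.47% higher. Its level also varied between types, from 6.32 CPM in dHet and 7.48 CPM in Control ventromedial neuron-like cells up to 15.9 CPM in dHet Ghrh/Th/Gal and 22.2 CPM in Control Agrp/Npy neuron-like cells.

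Rpgrip1l was lower in dHet in 5 of the 7 types, in which 51.5% to 60.3% of all genes were lower. The interval with the lowest upper bound was in ventromedial neuron-like cells, with 26.8 CPM (23.6 to 30.4) in dHet and 38.0 CPM (33.5 to 43.0) in Control, a ratio of 0.705 (0.589 to 0.843). No other gene of the 6 passed the fold in that type, where 7.70% of genes were lower past it and 3.15% higher. In Ghrh/Th/Gal neuron-like cells the ratio was 0.737 (0.556 to 0.978), in Kiss1/Tac2 0.763 (0.521 to 1.11) and in Vip/Grp/Avp 0.651 (0.412 to 1.02). It was 1.09 in Pomc and 1.05 in Sst neuron-like cells, with intervals that include 1.

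Chd9 was lowest relative to Control in Ghrh/Th/Gal neuron-like cells, at 66.2 CPM (58.4 to 74.7) in dHet and 90.5 CPM (80.1 to 102) in Control, a ratio of 0.731 (0.615 to 0.870). With Rpgrip1l it made 2 of 6 genes lower past the fold there, beside 8.54% of genes lower and 4.81% higher. Its ratio was 0.786 (0.688 to 0.898) in Sst and 0.811 (0.711 to 0.924) in ventromedial neuron-like cells, and 0.947 to 1.02 in Agrp/Npy, Kiss1/Tac2 and Pomc neuron-like cells. Aktip was at 78.6 CPM in dHet and 98.5 CPM in Control Ghrh/Th/Gal neuron-like cells, a ratio of 0.797 (0.678 to 0.938), just inside the fold on the scale used.

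In Kiss1/Tac2 neuron-like cells Rbl2 (0.677, 0.403 to 1.12), Aktip (0.786, 0.607 to 1.01) and Rpgrip1l were lower past the fold, 3 of the 5 genes with enough UMIs, beside 12.6% of genes lower and 7.15% higher. In Vip/Grp/Avp neuron-like cells Rbl2, Rpgrip1l and Bbs2 were lower past it, beside 13.0% of genes lower and 9.31% higher. All of these had intervals that include 1. In Sst neuron-like cells none of the 6 passed on the log2(CPM + 5) scale, beside a background of 4.37% lower and 2.31% higher.

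Because Fto and Rpgrip1l start 262 bp apart, their UMIs, summed over the cells of each class, were also set against each other, where the total count cancels. This puts the 2 level ratios given above into 1 value and adds no separate evidence. Cells were not compared singly, and other gene pairs were not examined. There were 2.54 Fto UMIs per Rpgrip1l UMI in dHet and 1.97 in Control neuron-like cells, an odds ratio of 1.29 (1.18 to 1.40). In Agrp/Npy neuron-like cells there were 3.21 in dHet and 1.87 in Control (1.72, 1.30 to 2.26), and in tanycyte-like cells 2.22 in dHet and 1.29 in Control (1.73, 1.16 to 2.58). The summed balance between the 2 genes was higher for Fto in dHet in these cells, which restates their ratios.

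Kiss1/Tac2 neuron-like cells had 2.17 Fto UMIs per Rpgrip1l UMI in dHet and 1.34 in Control (1.62, 1.01 to 2.61) and Vip/Grp/Avp neuron-like cells 3.03 in dHet and 1.84 in Control (1.64, 0.958 to 2.84). Ventromedial neuron-like cells had 2.42 Fto UMIs per Rpgrip1l UMI in dHet and 1.79 in Control (1.35, 1.09 to 1.69), Ghrh/Th/Gal neuron-like cells 2.71 in dHet and 1.82 in Control (1.49, 1.06 to 2.10), and Pomc neuron-like cells 2.18 in dHet and 1.91 in Control (1.14, 0.810 to 1.60). Sst neuron-like cells had 2.51 in dHet and 2.65 in Control (0.948, 0.734 to 1.23). Astrocyte-like cells had 2.78 in dHet and 3.06 in Control (0.910, 0.607 to 1.37), and both genes had ratios below 1 there. Gene length and capture enter each of these values, so the level of the balance itself is not a ratio of transcripts.

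The genes around the 6 were taken as a window of 36 protein-coding genes from Nod2 to Nup93, 28 of which are in the table and 23 of which had at least 50 UMIs. Leaving out the 6 genes, Irx3 and Irx5, 14 of the other 15 were lower in dHet, with a median log2 ratio of -0.13, beside 61.1% of all 15609 genes lower and a median of -0.03. Of the other 741 protein-coding genes measured on chromosome 8, 60.7% were lower, with a median of -0.03, and over the chromosomes the share lower ran between 57.5% and 64.8%. The exception in the window was the deubiquitinase gene Cyld (57.8 CPM in dHet, 56.7 CPM in Control). Scaling by the median ratio over genes left 13 of the 15 lower, and weighting every cell equally left 14.

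Gm19935, which lies beside Chd9, and the carboxylesterase gene Ces1d were the 2 of these 15 lower past the fold. Gm19935 was at 6.70 CPM in dHet and 12.4 CPM in Control, a ratio of 0.542 (0.483 to 0.608), and Ces1d at 3.04 CPM in dHet and 5.83 CPM in Control, a ratio of 0.520 (0.438 to 0.617). Ces1d was also among the 10 leading genes of the pars tuberalis- or pituitary-like cluster, which had 14 cells in dHet and 39 in Control. The other genes with at least 200 UMIs had ratios between 0.760 and 1.02. They include the metallothionein genes Mt3 (466 CPM in dHet, 537 CPM in Control), Mt1 (169 CPM in dHet, 192 CPM in Control) and Mt2 (44.8 CPM in dHet, 49.5 CPM in Control), the G protein gene Gnao1 (380.1 CPM in dHet, 390.0 CPM in Control), Tox3 (49.5 CPM in dHet, 56.3 CPM in Control), Nudt21 (80.0 CPM in dHet, 81.2 CPM in Control), Ogfod1 (16.1 CPM in dHet, 17.5 CPM in Control), Nup93 (11.1 CPM in dHet, 13.1 CPM in Control) and Lpcat2 (2.51 CPM in dHet, 3.30 CPM in Control).

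Within classes the counts of the window were mixed. In neuron-like cells 10 of 12 other window genes were lower in dHet, with a median of -0.05, but 6 of 12 after scaling by the median ratio over genes. In astrocyte-like cells 7 of 12 were lower, and in tanycyte-like cells 3 of 12. The members themselves were lower in 5 of 6 cases in neuron-like and astrocyte-like cells and in 3 of 6 in tanycyte-like cells.

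**Figure D4:**
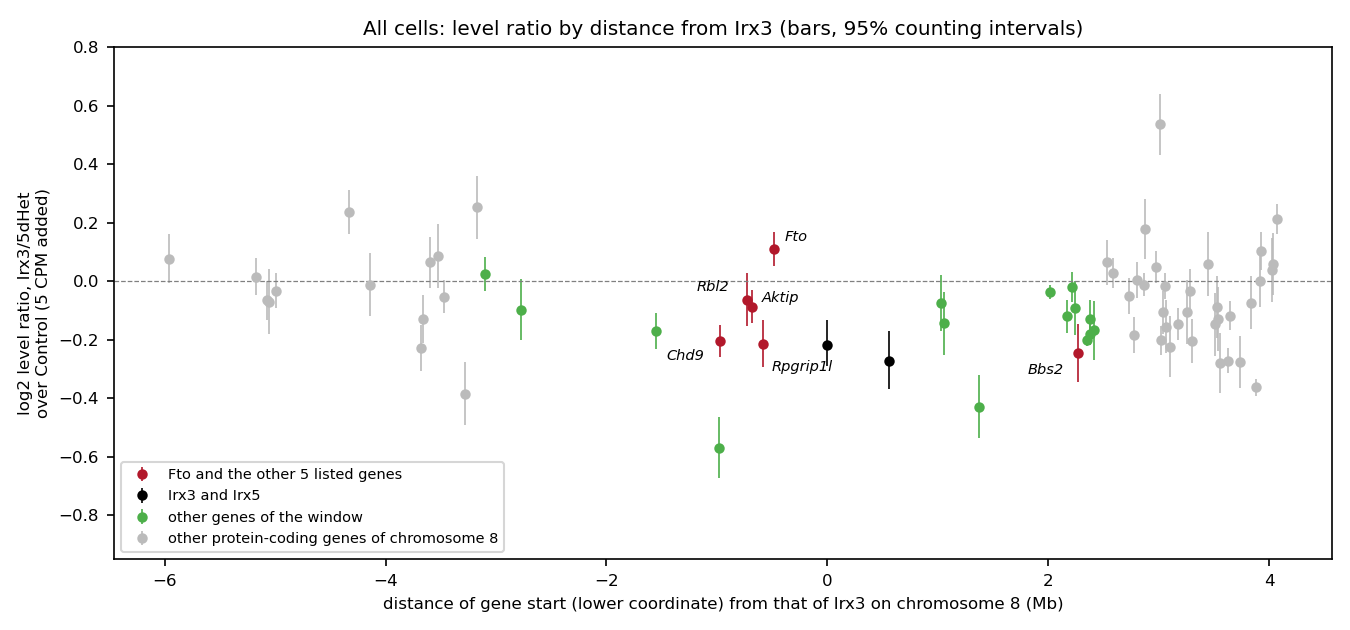
Log2 ratio of dHet over Control over all cells against distance from the Irx3 start on chromosome 8 (Mb), with the 6 genes, Irx3 and Irx5, the other genes of the window and further protein-coding genes in different colours. Of the 15 other window genes 14 lie below 0, beside 61.1% of all genes, with a median of -0.13, and Fto at 0.11 lies above its neighbours.

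The partners of each gene were taken as lists, without the 6 genes. Of 22 measured genes of RNA adenosine methylation and the AlkB family, 17 were lower in dHet and none passed the fold, with a median log2 ratio of -0.05 beside -0.03 over all genes. After scaling by the median ratio over genes the count was 13 of 22, and with every cell also weighted equally it was 12 of 22 with a median of 0.00. The largest differences were in the methyltransferase cofactor Rbm15 (9.51 CPM in dHet, 12.4 CPM in Control; 0.766, 0.691 to 0.850), the reader Ythdf3 (a ratio of 0.841) and the methyltransferases Mettl16 (63.7 CPM in dHet, 74.8 CPM in Control; 0.853) and Mettl3 (17.5 CPM in dHet, 20.5 CPM in Control; 0.853). Alkbh5, the other RNA demethylase of this kind, was at 38.6 CPM in dHet and 42.6 CPM in Control, a ratio of 0.906 and opposite in direction to Fto.

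The cilium lists leaned lower in dHet over all cells and in neuron-like cells. Of 12 BBSome and assembly genes 10 were lower and 1 of them past the fold, with a median of -0.13. Of 17 transition zone genes 16 were lower and 2 past the fold, with a median of -0.09. These are 8.33% and 11.8% of their lists, beside 2.71% of all genes lower past the fold. Scaled by the median ratio the counts were 10 of 12 and 14 of 17.

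Among genes with at least 200 UMIs, the BBSome genes with the largest differences on the log2(CPM + 5) scale were the subunit Bbs5 (16.5 CPM in dHet, 22.0 CPM in Control; 0.750, 0.694 to 0.811) and the chaperonin-like Bbs12 (2.48 CPM in dHet, 3.52 CPM in Control; 0.704), Bbs10 (4.40 CPM in dHet, 5.59 CPM in Control; 0.786) and Mkks (8.60 CPM in dHet, 10.4 CPM in Control; 0.825). Among such transition zone genes the largest differences on that scale were in Tmem107 (28.9 CPM in dHet, 40.6 CPM in Control; 0.712, 0.672 to 0.755), Tmem216 (22.1 CPM in dHet, 29.2 CPM in Control; 0.757, 0.707 to 0.809), Mks1 (6.43 CPM in dHet, 8.80 CPM in Control; 0.731) and Cc2d2a (13.1 CPM in dHet, 16.8 CPM in Control; 0.784). Several of these are, like Rpgrip1l, highest in ependymal-like cells, for instance Tmem107 at 785 CPM against 24.8 CPM in neuron-like cells and Cep290 at 304 against 36.2 CPM, both libraries together. The share of ependymal-like and tanycyte-like cells enters their values over all cells.

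**Figure D5:**
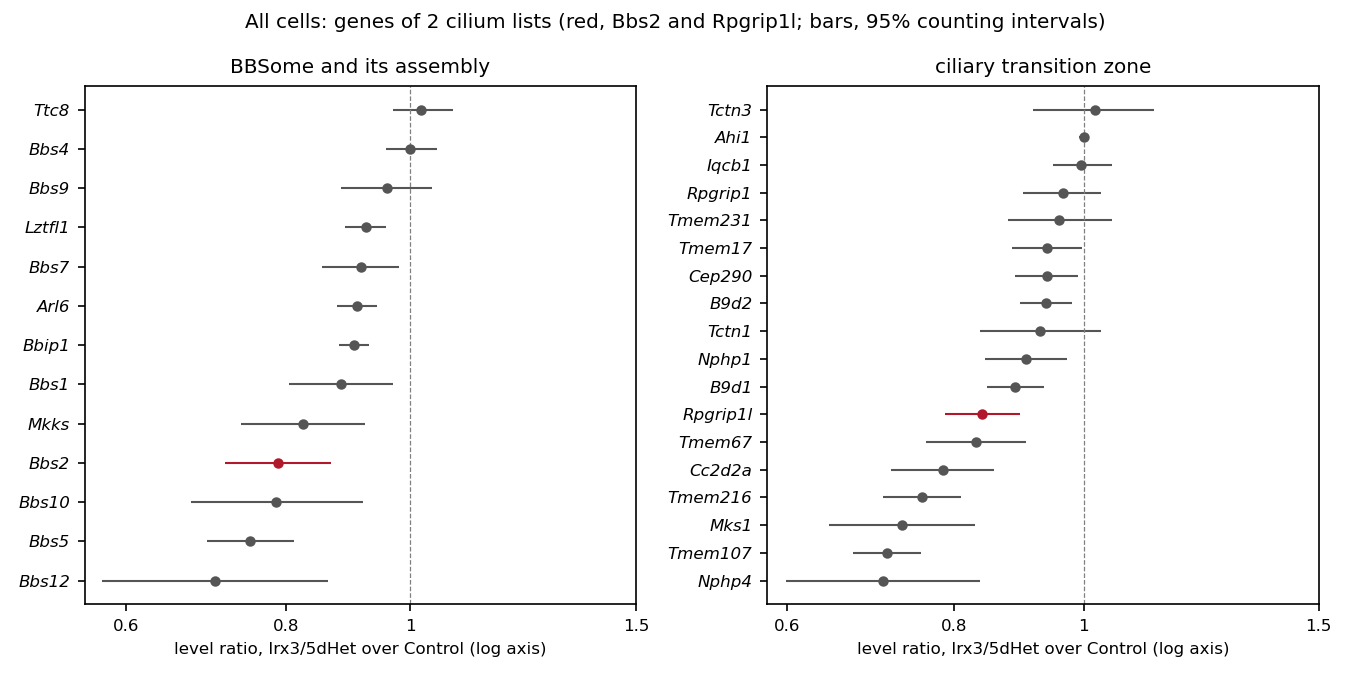
Ratio of the level in the dHet library over the Control library, all cells (log axis), for each gene of the BBSome list and of the transition zone list, in 1 panel per list, with 95% intervals for counting error and Bbs2 and Rpgrip1l in red. Of the other genes 10 of 12 and 16 of 17 lie below 1, beside 61.1% of all genes, among them Bbs12 at 0.704 and Tmem107 at 0.712.

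In neuron-like cells alone, 11 of 12 BBSome genes (median -0.13) and 17 of 17 transition zone genes (median -0.07) were lower in dHet, beside 58.1% of all genes, and 10 and 14 after scaling by the median ratio. In tanycyte-like cells the counts were 5 of 10 and 7 of 15, and in astrocyte-like cells 5 of 12 and 8 of 15, beside 52.5% and 50.5% of all genes. The lower Rpgrip1l level in tanycyte-like cells was thus not accompanied by a lean of its list in that class.

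In the lists of the remaining genes none passed the fold over all cells, beside 3.34% of all genes. In the FTS-Hook-FHIP list of Aktip 2 of 6 genes were lower (median 0.02), with Hook1 at 74.6 CPM in dHet and 69.5 CPM in Control and Hook3 at 111 CPM in dHet and 109 CPM in Control. Fam160b2 (8.37 CPM in dHet, 9.67 CPM in Control) and Fam160b1 (23.8 CPM in dHet, 22.6 CPM in Control) lay on either side of 1. Of 12 pocket protein and DREAM genes 10 were lower (median -0.09), including the histone chaperone Rbbp4 (97.3 CPM in dHet, 115 CPM in Control; 0.845), E2f5 (9.84 CPM in dHet, 11.8 CPM in Control), Lin9 (5.78 CPM in dHet, 6.88 CPM in Control) and E2f4 (14.2 CPM in dHet, 16.3 CPM in Control). Of 8 CHD remodellers 6 were lower (median -0.03), among them Chd7 (23.9 CPM in dHet, 28.0 CPM in Control; 0.853), Chd1 (18.7 CPM in dHet, 21.0 CPM in Control) and Chd6 (103 CPM in dHet, 110.0 CPM in Control), while Chd5 was at 138 CPM in dHet and 131 CPM in Control. Scaled by the median ratio over genes, 1 of 6, 10 of 12 and 5 of 8 genes of these lists were lower, and with every cell weighted equally 2 of 6, 9 of 12 and 5 of 8.

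Over the 32 clusters the 6 genes did not vary together. Rpgrip1l and Bbs2 had the highest Pearson r of any pair, 0.48, and Rbl2 and Aktip the lowest, -0.44, on log2(CPM + 5) with both libraries together. Fto and Rpgrip1l, which share an upstream region, had r = -0.21. Each cluster counted equally in r, whatever its number of cells. Rpgrip1l and Bbs2 both peaked in the ependymal-like cluster (25 dHet and 28 Control cells). Their levels there were 133 CPM and 44.9 CPM, against medians over clusters of 23.9 CPM and 12.6 CPM. How far r rests on that cluster was not tested. The clusters share libraries and differ in depth, so these are descriptions only.

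The genes most like each of the 6 over these clusters were sought by the same measure among limited candidates. Genes with far fewer UMIs than the member, and genes of its own partner list, were left out. This left 5009 genes compared for Chd9, the fewest, and 10562 for Bbs2, the most. Whether a transition zone gene was as like Rpgrip1l, or a BBSome gene as like Bbs2, was thus not examined here. For Rpgrip1l they were Ift81 (r = 0.91), a gene of intraflagellar transport, Oscp1 (0.90) and Arhgap39 (0.87), and for Bbs2 they were Dync2li1 (0.83), a subunit gene of the dynein of cilia, Mcee (0.81) and Morn2 (0.80). For Fto they were Srsf11 (0.75), Zkscan1 (0.73) and Ptdss1 (0.72), for Chd9 Trim9 (0.74), Spag9 (0.72) and Krit1 (0.71), for Rbl2 Arhgap17 (0.90), Rpe (0.88) and Vps37b (0.86), and for Aktip Pcsk1n (0.86), Gnl3l (0.82) and Rnf208 (0.82). Fto (5478 genes compared) and Chd9 (5009 genes compared) had the weakest closest matches of the 6, among candidates that differed in number between members.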

How the data were processed

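Per the labels' protocols, viable tdTomato-positive cells were sorted and libraries made with 10x Genomics 3′ v3 chemistry. The authors aligned and counted with Cell Ranger 3.0.2, per the file headers. The build was mm10, per the submitters' processing notes, while annotation and strand use are not given in the sources read. The deposited files hold raw UMI counts per gene and cell barcode: 1 matrix per library (31053 genes) and a table of both libraries (20210 genes, 7418 barcodes, all present in the matrices). The table was used, and in it the counts of the 6 genes were identical to the matrices in every cell. There were 0 columns of values outside the 2 samples.

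Counts were scaled to 10000 per cell, log-transformed and clustered with scanpy 1.11.5 (python 3.11.15): 2000 variable genes without mitochondrial, ribosomal, haemoglobin and sex-linked genes, Irx3, Irx5 and the 6 genes, 30 principal components, 15 neighbours, Leiden resolution 1. A non-neuronal class name needed at least 3 and at least 50% of its listed markers in 25% or more of a cluster's cells. At least 1 also had to be among its 10 leading genes. Neuron-like clusters needed at least 4 neuronal markers at that share, more than any class but cycling cells. Their leading genes held at least as many neuronal or neuron type markers as those of any other class. Clusters under 1/3 of the library median depth in both libraries could not take that name. A neuron type needed more than 1 of its markers among the 10 leading genes, more than any other type. At least 3 of its markers had to reach the 25% share. Scrublet at an expected rate of 4% marked 31 dHet barcodes (0.787%) and 14 Control barcodes (0.402%), too few to rely on, so all cells were kept.

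Levels are summed UMIs of a gene over all UMIs of the cells, in CPM, with exact Poisson intervals, ratios have exact conditional binomial intervals and shares exact Clopper-Pearson intervals (scipy 1.17.1), all at 95%. Log2 ratios had 5 CPM added. Interval coverage was tested on simulated Poisson counts, the model behind the intervals. That checks the calculation only and cannot show coverage for spread between cells or animals. Named genes were the 6, Irx3, Irx5 and window genes with at least 200 UMIs (5 genes beyond each end). Up to 4 genes per partner list with at least 200 UMIs and the largest ratios were also named. So were the 3 most similar genes per member among its limited candidates. Alkbh5, Cep290 and the leading genes of clusters were named after their values were seen. Of the window genes under this rule, 1 is not reported here. The members, lists and markers were chosen with earlier results of these data known.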

Additional observations from a re-analysis of the deposited data

Results flagged for a closer look

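The ratio of Fto between the libraries pointed in opposite directions in different cell classes. It was 1.11 (1.06 to 1.16) in neuron-like cells, 1.31 (1.13 to 1.52) in Agrp/Npy neuron-like cells and 1.24 (1.02 to 1.51) in Pomc neuron-like cells, and 0.749 (0.612 to 0.914) in astrocyte-like cells. Each interval covers counting error only and lies on 1 side of 1. With 1 library per genotype the difference between classes was not tested. Median depth was lower in dHet neuron-like cells (21260.5 UMIs in dHet, 22840.0 in Control) and higher in dHet astrocyte-like cells (6547 UMIs in dHet, 5706 in Control), and after thinning to 4000 UMIs the Pomc log2 ratio was -0.21.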

How the results depend on the processing

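No paired analysis was possible because each genotype has 1 library, and for the same reason no replicate could be left out. No ratio over all cells changed sign under the alternatives tried singly; with every cell weighted equally and scaling by the median ratio together, 4 of the 6 genes were lower in place of 5. Of 60 alternative values for the 6 ratios over all cells, 51 stayed within the counting interval and 9 did not, and of 660 in classes and neuron types 640 did and 20 did not. On the log2 scale, thinning to 4000 UMIs gave -0.30 for Chd9, 0.01 for Fto and -0.37 for Bbs2, and weighting every cell equally gave -0.31 for Chd9, -0.32 for Rpgrip1l and 0.02 for Fto. Keeping the cells of the 25th to 75th depth percentile gave -0.17 for Rbl2 and -0.32 for Rpgrip1l, and adding 20 CPM gave -0.13 for Bbs2. The cause was not tested. In classes, Fto changed sign in Pomc neuron-like cells when thinned (-0.21) and in tanycyte-like cells with every cell weighted equally (-0.22), and its values near 0 in Sst (-0.28 to 0.05) and ventromedial (-0.23 to 0.01) neuron-like cells also crossed 0. The ranges over the alternatives tried singly were 0.01 to 0.14 for Fto, -0.37 to -0.13 for Bbs2, -0.32 to -0.15 for Rpgrip1l, -0.31 to -0.17 for Chd9, -0.13 to -0.06 for Aktip and -0.17 to -0.03 for Rbl2. Genes past the fold in either direction numbered 522 over all cells, 297 in neuron-like, 2364 in astrocyte-like and 1897 in tanycyte-like cells; a fold of 1.5 left 85, 41, 524 and 359. A minimum of 200 UMIs gave 995 in astrocyte-like and 615 in tanycyte-like cells, and a minimum of 1 UMI gave 3258 in tanycyte-like cells. Leaving out the 4% of barcodes with the highest Scrublet scores and splitting neuron-like cells by depth were chosen after seeing the data. Below about 50 UMIs per class, which holds for Bbs2 and Rpgrip1l in oligodendrocyte-lineage cells, counting error alone spans more than the differences described.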

Other observations

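Cells in the 4 clusters that could not be named (143 dHet and 238 Control cells) had median depths of 1706 UMIs in dHet and 1854 in Control. The clusters themselves differed, with medians of 1032.0 and 1070.0 UMIs in 2 of them and 10940.0 and 9514.5 UMIs in the other 2. Over all 4 Fto was at 76.9 CPM (57.6 to 101) in dHet and 49.8 CPM (38.1 to 64.0) in Control, from 53 dHet and 61 Control UMIs.

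Neuron-like cells held 88.2% of all UMIs in dHet and 84.1% in Control. They held 89.0% of Fto UMIs in dHet and 83.1% in Control, 88.8% of Rpgrip1l UMIs in dHet and 82.5% in Control, 91.7% of Aktip UMIs in dHet and 87.2% in Control, 82.0% of Chd9 UMIs in dHet and 77.7% in Control, 82.9% of Bbs2 UMIs in dHet and 82.8% in Control, and 75.9% of Rbl2 UMIs in dHet and 75.3% in Control. For Bbs2 and Rbl2 this share was about equal in the libraries while the share of all UMIs was not.

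Ins2, the gene whose promoter drove Cre, had 41 UMIs in dHet and 50 in Control over all cells.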
